A study of Mus musculus with 1 sample.

Results

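Interferon-stimulated genes were followed as a module of 39 protein-coding genes, chosen by symbol from a fixed list, among the 32285 genes of a single-cell RNA-seq matrix of mouse bone marrow. All 39 had a UMI (unique molecular identifier, 1 per captured RNA molecule) in the library. The cells were lineage-negative, c-Kit+ (LK) bone marrow cells, a mixture of hematopoietic stem cells and progenitors of most blood lineages. The study asked what the chromatin remodeling subunit BRD9 does in these cells, and the library was its control. The Brd9-deleted library was not analysed here, so every comparison below was between cells of 1 library, with no replicate and no test.

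The control mice were C57BL/6 and carried floxed Brd9 (Brd9fl/fl) with no Cre, so that Brd9 was intact. They had received 20 mg/kg of pIpC (polyinosinic-polycytidylic acid) every other day for 3 doses, starting 4 weeks after a transplant according to the sample's labels or 4 weeks after birth according to the series text, and the cells were taken 8 weeks after pIpC. The labels give a CD45.2(+) donor and a CD45.1(+) CD45.2(-) recipient, whereas the series text and the methods describe primary mice, and which of them applied was not settled. pIpC is a double-stranded RNA mimic that itself induces interferon, and the library held no animals without it. The number of animals behind the library was not given in the sources used here.

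Interferons are secreted alarm signals. Type I interferons bind the IFNAR receptor, which activates the kinases JAK1 and TYK2. These phosphorylate STAT proteins, among them STAT2, which act with IRF9 at the interferon-stimulated response element (ISRE). Interferon gamma acts mainly through the gamma-activated sequence (GAS). The genes switched on sense viral RNA, tag or tether viral proteins, block translation or attack the vacuoles of intracellular microbes. In bone marrow, stem cells are known to keep a basal set of these genes on, while many of the genes are low in maturing cells.

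Promoter sequence was examined first, because ISRE and GAS are the elements through which the pathway acts. RefSeq windows (GRCm38.p6) from 250 bases before to 50 bases after the start site were matched for 30 of the 39 genes. Those without one were Usp18, Oas2, Ifi27l2a, Iigp1, Zbp1, Rtp4, Parp9, Parp14 and Dhx58. The letters GAAA followed, after any 2 bases, by GAAA, on either strand, stood for the ISRE, and TTCNNNGAA, which reads alike on both strands, for GAS. An ISRE match was present for 17 of the 30 genes (56.7%), against 3.99% of 27025 genes with a window. A GAS match was present for 9 (30.0%) against 9.55%, and both for 6 (20.0%) against 0.614%. Such a match is a description of letters in this window. The promoters shown are of genes that the results below turn on, each as the 140 bases before the start site, 5′ to 3′ on the gene's strand, with every ISRE or GAS match in capitals and overlapping matches run together.
Isg15, chr4:156200819-156200958, minus strand: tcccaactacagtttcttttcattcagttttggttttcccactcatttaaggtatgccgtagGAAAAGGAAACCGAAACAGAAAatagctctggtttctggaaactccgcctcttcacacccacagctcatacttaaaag
Ifit1, chr19:34640749-34640888, plus strand: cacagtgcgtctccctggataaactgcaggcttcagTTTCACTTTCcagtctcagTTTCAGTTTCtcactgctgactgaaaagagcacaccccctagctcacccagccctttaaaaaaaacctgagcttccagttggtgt
Rsad2, chr12:26456453-26456592, minus strand: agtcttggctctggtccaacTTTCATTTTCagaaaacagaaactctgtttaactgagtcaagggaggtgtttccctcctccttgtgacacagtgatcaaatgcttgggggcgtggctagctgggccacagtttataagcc
Gbp2, chr3:142620523-142620662, plus strand: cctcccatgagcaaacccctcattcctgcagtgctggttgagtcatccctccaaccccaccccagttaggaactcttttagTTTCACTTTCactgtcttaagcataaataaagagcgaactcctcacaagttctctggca
Irgm2, chr11:58214837-58214976, plus strand: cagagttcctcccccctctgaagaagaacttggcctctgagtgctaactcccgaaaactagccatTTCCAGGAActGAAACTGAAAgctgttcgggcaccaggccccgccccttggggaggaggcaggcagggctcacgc
Bst2, chr8:71537473-71537612, minus strand: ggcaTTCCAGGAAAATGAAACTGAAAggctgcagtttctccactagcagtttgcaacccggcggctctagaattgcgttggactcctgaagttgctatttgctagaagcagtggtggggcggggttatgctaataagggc
Irf1, chr11:53769874-53770013, plus strand: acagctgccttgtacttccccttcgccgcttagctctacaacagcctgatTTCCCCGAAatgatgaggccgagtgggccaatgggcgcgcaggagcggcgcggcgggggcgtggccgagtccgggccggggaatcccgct
Isg15 had 3 overlapping ISRE matches, Ifit1 had 2 separate ones, and Rsad2 and Gbp2 had 1 each. Irgm2 and Bst2 had GAS beside or overlapping ISRE, and Irf1 had GAS alone. Genes with and without an ISRE match overlapped in their behaviour in the cells. The share of a gene's UMIs held by the 1% of cells highest in the module (defined below) had a median of 3.79% and ran from 1.14% to 38.1% over the 17 genes with ISRE. It had a median of 2.65% and ran from 1.43% to 14.4% over the 13 without.

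The cell filter of the study kept 7645 of 8817 barcodes, with 151852381 UMIs and a median of 18696 per cell. Kit had a UMI in 65.8% of these cells and Brd9 in 41.8%. Cells were placed in marker gates. Each cell was scored on 14 lists of marker genes, and it entered the gate of its best list when that score was at least 0.25 and led the next by at least 0.1. A gate is thus a range of scores and not a cell type, and 2250 cells (29.4%) lay within 0.05 of a limit. The 8 gates of 50 or more cells are used below. The gate called stem-like held 702 cells, of which 126 were near a limit, and its leading genes were Procr, Cldn5, Myof, Sult1a1 and Nkx2-3. The median stem-like cell had 12.8 stem marker UMIs per 10000, 2.21 neutrophil, 1.16 megakaryocyte and 1.03 erythroid marker UMIs, and 0 for each of the other 10 lists. Conventional dendritic-like cells numbered 73 and carried more monocyte marker UMIs (a median of 9.52 per 10000) than dendritic ones (7.07), since the gate compares each list with its own highest cells. The remaining 2140 cells were in no gate.

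Depth differed among the gates and touches every comparison. The median was 8369 UMIs in stem-like cells, 21321 in neutrophil lineage-like cells and 32632 in erythroid-like cells. Levels are therefore given as CPM (UMIs per 1000000 UMIs of a gate), and UMIs per cell stand beside many of the sums and folds. A stem-like cell had on average 0.430 times the UMIs of a neutrophil lineage-like cell and 0.298 times those of an erythroid-like cell, so a CPM fold over these gates is multiplied by that number to give the fold per cell. Levels of single genes in a gate are CPM alone. Because each molecule is counted once from its 3′ end, CPM values of different genes were compared without a length correction. Intervals are 95% exact intervals that cover counting error only.

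Stem-like cells had the highest summed level of the module among these 8 gates as CPM. The 39 genes made up 1520 CPM there (1491 to 1551), 1232 CPM (1158 to 1309) in conventional dendritic-like cells and 912 CPM (886 to 938) in lymphoid-primed multipotent-like cells. Megakaryocyte-like cells had 733 CPM, basophil or mast-like cells 584 CPM and monocyte-like cells 571 CPM. Neutrophil lineage-like cells with 454 CPM (445 to 463) and erythroid-like cells with 435 CPM (428 to 441) were lowest. The intervals of basophil or mast-like (564 to 605) and monocyte-like cells (562 to 581) overlapped, and no other neighbours in this order did. The 14 plasmacytoid dendritic-like cells, too few for the limit of 50, had a higher sum than stem-like cells, at 2495 CPM (2254 to 2754) and 28 UMIs per cell. Without Bst2 they had 1044 CPM and stem-like cells 1397 CPM. Counted per cell the order of the 8 gates was different and much flatter. Lymphoid-primed multipotent-like cells had 15 UMIs of the module per cell, stem-like and conventional dendritic-like cells 14.3 each, and erythroid-like cells 13.7. Neutrophil lineage-like cells had 9.90 and basophil or mast-like cells 8.10.

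**Figure D1:**
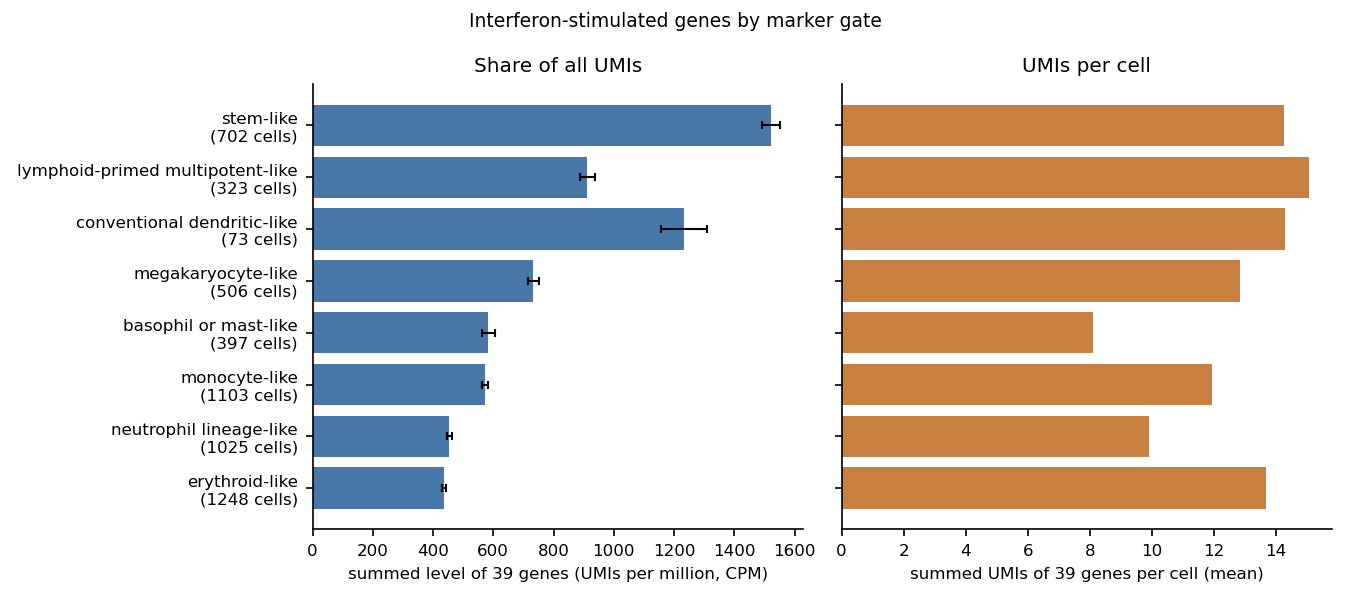
Summed level of the 39 genes in the 8 marker gates of 50 or more cells, as CPM with exact 95% Poisson intervals (left) and as mean UMIs per cell (right). Stem-like cells are highest at 1520 CPM and erythroid-like cells lowest at 435 CPM, while per cell the gates lie between 8.10 and 15 UMIs.

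Against neutrophil lineage-like cells the stem-like sum was 3.35-fold higher as CPM (3.26 to 3.45) and 1.44-fold higher per cell. Against erythroid-like cells it was 3.50-fold higher as CPM (3.41 to 3.58) and 1.04-fold higher per cell. The sum was 1.67-fold higher as CPM than in lymphoid-primed multipotent-like cells, but 0.947-fold per cell. It was 1.23-fold higher as CPM than in conventional dendritic-like cells, but 0.998-fold per cell. When only cells of 8000 to 16000 UMIs were kept in both gates, the CPM folds were 3.03 (2.82 to 3.27) over neutrophil lineage-like and 2.45 (2.27 to 2.65) over erythroid-like cells.

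Each cell was also thinned at random to 5000 UMIs, which left out 99 cells, 13 of them stem-like. The median of single stem-like cells was then the highest of the 8 gates. Thinning keeps a cell's share of module UMIs apart from sampling. The result thus restates the CPM order cell by cell and is no separate check on depth. The median thinned stem-like cell had 7 UMIs of the module (range 0 to 47), against 2 in neutrophil lineage-like cells (0 to 10) and 2 in erythroid-like cells (0 to 29). No UMI of the module was left in 0.290% of stem-like, 12.2% of neutrophil lineage-like and 13.5% of erythroid-like cells. The ranges overlapped in all 3 gates. Before thinning, the stem-like cells had between 2 and 103 module UMIs, with a median of 12.

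A few genes carried much of the sum. Over all cells kept, the module had 624 CPM, and Bst2, which encodes tetherin, a membrane protein that holds budding virus at the cell surface, made up 19.9% of it with 124 CPM. Ifi47, an immunity-related GTPase, followed with 47.7 CPM and Lgals3bp, a secreted glycoprotein, with 43.7 CPM. The guanylate-binding protein Gbp7 had 32.8 CPM, Eif2ak2, the kinase PKR that halts translation on double-stranded RNA, 32.4 CPM and Ifi35 29.4 CPM. Trim30a, a TRIM family protein, had 28.4 CPM, Irf9 21.3 CPM, Dtx3l 21.3 CPM and Gbp3 19.1 CPM. Ifit3 (42 UMIs) and Oas2 (44 UMIs) were lowest. Without Bst2 the stem-like sum stood 4.28-fold above neutrophil lineage-like cells and 3.67-fold above erythroid-like cells.

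The members did not share 1 pattern across the gates. Of the 37 members with at least 100 UMIs, 23 had their highest CPM in stem-like cells, against 28.7% of 12483 genes with as many UMIs. A further 10 were highest in conventional dendritic-like cells, against 13.1% of these genes. Those 10 were Irf7, Irf9, Stat2, Usp18, Ifi27l2a, Zbp1, Dhx58, Trim30a, Samd9l and Ifi35. For Usp18 (9 UMIs), Zbp1 (20 UMIs) and Dhx58 (13 UMIs) the difference from stem-like cells was within counting error, with stem-like folds of 0.586 (0.281 to 1.37), 0.701 (0.432 to 1.19) and 0.970 (0.542 to 1.89). The 10 include 3 of the 4 members that act in signalling. Bst2 was highest in lymphoid-primed multipotent-like cells, Gbp3 in monocyte-like cells, Ifit2 in megakaryocyte-like cells and Cmpk2 in erythroid-like cells. None was highest in neutrophil lineage-like or basophil or mast-like cells. The share of all genes was computed for the stem-like and conventional dendritic-like gates alone. Outside these 8 gates, Bst2, which is also a surface marker of plasmacytoid dendritic cells, made up 58.2% of the module's UMIs in the 14 plasmacytoid dendritic-like cells, with 228 UMIs (1451 CPM).

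**Figure D2:**
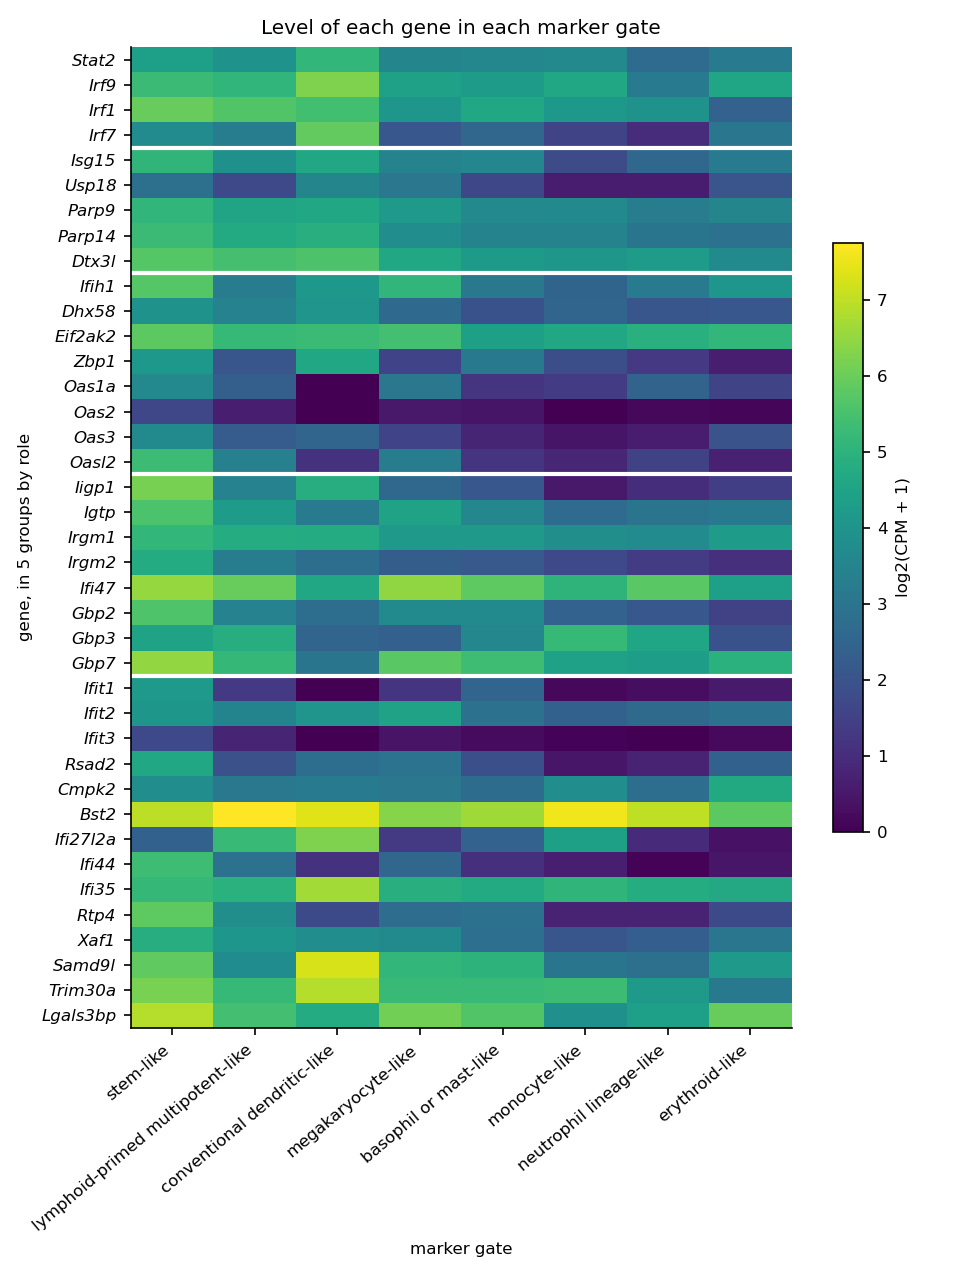
Level of each of the 39 genes (rows, in 5 groups by role) in the 8 marker gates (columns), as log2 of CPM + 1. Bst2 is bright in every column, 25 genes peak in the stem-like column, and Irf7, Samd9l and Ifi27l2a stand out in the conventional dendritic-like column.

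The 4 signalling and transcription members summed to 131 CPM in stem-like and 208 CPM in conventional dendritic-like cells, and to 29.6 CPM in neutrophil lineage-like cells. Per cell these were 1.23, 2.41 and 0.647 UMIs, and erythroid-like cells had 1.32. Irf7, which amplifies the type I response, had 57.9 CPM in conventional dendritic-like cells, 12.5 in stem-like cells and 0.983 in neutrophil lineage-like cells. Irf9, the DNA-binding partner of STAT2, had 74.4, 37.8 and 8.27 CPM in these gates, and Stat2 had 34.2, 19.7 and 5.50 CPM. Irf1, a factor induced above all by interferon gamma, ran differently. Its level was 61.1 CPM in stem-like cells, 49.0 in lymphoid-primed multipotent-like cells, 41.3 in conventional dendritic-like cells and only 4.36 in erythroid-like cells, where Irf9 had 22.6 CPM.

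The ISG15 and ADP-ribosylation members summed to 161 CPM in stem-like cells and 39.2 CPM in neutrophil lineage-like cells, or 1.51 and 0.856 UMIs per cell. Isg15, a ubiquitin-like protein that is attached to other proteins, had 32.5 CPM (28.3 to 37.2) in stem-like, 8.06 in erythroid-like, 5.0 in neutrophil lineage-like and 2.52 in monocyte-like cells. Usp18, which removes ISG15 and restrains the receptor, was low throughout with 10.6 CPM in conventional dendritic-like, 6.23 in stem-like and 0.492 CPM in neutrophil lineage-like cells. Parp9 and its partner Dtx3l, an ADP-ribosyl reader and a ubiquitin ligase, had 33.0 and 51.5 CPM in stem-like cells, and 8.67 and 17.9 CPM in neutrophil lineage-like cells. Their genes overlap on opposite strands.

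The RNA and nucleic acid sensors summed to 201 CPM in stem-like cells, against 48.6 in neutrophil lineage-like, 38 in monocyte-like and 59.6 in erythroid-like cells. Per cell they were level between stem-like (1.88 UMIs) and erythroid-like cells (1.87), with 1.06 in neutrophil lineage-like and 0.794 in monocyte-like cells. Ifih1, the viral RNA sensor MDA5, had 51.0 CPM in stem-like, 33.0 in megakaryocyte-like and 4.60 CPM in monocyte-like cells. Oasl2, of the oligoadenylate synthetase family, had 38.3 CPM in stem-like and 0.637 CPM in erythroid-like cells, a fold of 60.1 (39.7 to 94.6). Zbp1, a sensor of Z-form nucleic acid that can trigger cell death, had 23.6 CPM in conventional dendritic-like, 16.6 in stem-like and 0.561 CPM in erythroid-like cells. Eif2ak2 was the flattest of the group with 54.2 CPM in stem-like, 34.1 in erythroid-like and 29.1 CPM in neutrophil lineage-like cells.

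The GTPases summed to 425 CPM in stem-like, 121 CPM in neutrophil lineage-like and 83.0 CPM in erythroid-like cells, or 3.98, 2.64 and 2.61 UMIs per cell. Iigp1, which damages the vacuoles of intracellular parasites, had 70.2 CPM in stem-like cells, 27.2 in conventional dendritic-like cells, 1.03 in neutrophil lineage-like and 0.434 in monocyte-like cells. Gbp2 had 47.9 CPM in stem-like and 1.86 CPM in erythroid-like cells. Gbp3, a neighbour of Gbp2 and Gbp7 on chromosome 3, was highest elsewhere, with 35.8 CPM in monocyte-like, 22.9 in neutrophil lineage-like, 21 in stem-like and 2.83 CPM in erythroid-like cells. Igtp and Irgm2 overlap on the same strand, so that their counts (45.9 and 26.0 CPM in stem-like cells) could be split between them in ways not seen here.

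The other 14 members, the IFIT, membrane and further effector genes, summed to 603 CPM in stem-like, 683 in conventional dendritic-like, 215 in neutrophil lineage-like and 210 CPM in erythroid-like cells. Per cell the order turned, with 5.65 UMIs in stem-like, 7.92 in conventional dendritic-like, 4.70 in neutrophil lineage-like and 6.60 in erythroid-like cells. Ifit1, which binds foreign RNA, had 17.0 CPM in stem-like, 0.484 in erythroid-like and 0.223 CPM in neutrophil lineage-like cells. Its neighbour Ifit2 was flatter, with 21.2 CPM in megakaryocyte-like, 16.1 in stem-like and 5.36 CPM in neutrophil lineage-like cells. Rsad2 (viperin) and the nucleotide kinase gene Cmpk2 lie next to each other on chromosome 12, and they parted between gates. Rsad2 had 24.0 CPM in stem-like and 4.26 CPM in erythroid-like cells, whereas Cmpk2 had 12.8 CPM in stem-like and 25 CPM in erythroid-like cells. Samd9l had 154 CPM in conventional dendritic-like, 56.5 in stem-like and 6.98 CPM in monocyte-like cells. Ifi27l2a was at 74.4 CPM in conventional dendritic-like, 36.9 in lymphoid-primed multipotent-like, 20.3 in monocyte-like and 4.25 CPM in stem-like cells.

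Against neutrophil lineage-like cells, 31 of the 36 members with at least 50 UMIs in both gates together were at least 2-fold higher in stem-like cells as CPM. The same held for 36.6% of 11158 genes. The median fold was 5.60 for the members and 1.51 for all genes. Per cell, 20 of the 36 were at least 2-fold higher and 6 were under 1-fold. Shares of all genes were computed for CPM folds alone, so these per-cell counts cannot be set against them. Ifi44 had 259 UMIs in stem-like cells and 1 UMI in neutrophil lineage-like cells, a fold of 880 whose interval ran from 157 to 34908. Rtp4, a receptor transporter protein, had a fold of 78.6 (47.8 to 139), Ifit1 76.1 (31.7 to 239) and Iigp1 68.3 (44.9 to 109). Rsad2 was 33.6-fold (20.0 to 60.2) and Oas3, an oligoadenylate synthetase, 24.7-fold higher (13.1 to 51.5). At the other end, Gbp3 at 0.914-fold (0.752 to 1.11) and Bst2 at 0.970-fold (0.896 to 1.05) did not differ beyond counting error as CPM, and per cell they were the lowest of the members, at 0.393- and 0.417-fold. Ifi35 was 1.30-fold, Ifi47 1.68-fold, Eif2ak2 1.86-fold and Cmpk2 2.16-fold higher as CPM, and all 4 were lower per cell (0.557-, 0.723-, 0.801- and 0.929-fold). Ifit3 had 15 UMIs in stem-like and 0 in neutrophil lineage-like cells, which allows up to 0.134 CPM there.

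Against erythroid-like cells, 29 of 36 members were at least 2-fold higher as CPM, against 33.9% of 11461 genes, with a median fold of 4.17 for the members and 1.29 for all genes. Per cell, 11 of the 36 were at least 2-fold higher and 14 were under 1-fold, again with no share of all genes computed per cell. Ifi44 was 103-fold higher as CPM (61.2 to 186) and 30.7-fold per cell, Oasl2 60.1-fold and 17.9-fold, Iigp1 41.7-fold and 12.4-fold, and Ifit1 35.1-fold and 10.5-fold. Zbp1 was 29.5-fold higher as CPM and 8.81-fold per cell, and Gbp2 25.7-fold and 7.67-fold. Cmpk2 was lower in stem-like cells, at 0.511-fold as CPM (0.404 to 0.639) and 0.153-fold per cell. Ifi35 (1.43-fold), Eif2ak2 (1.59), Irf9 (1.67), Irf7 (1.73) and Irgm1 (1.84) were the next lowest as CPM and were all under 1-fold per cell. Bst2, level with neutrophil lineage-like cells, was 2.29-fold above erythroid-like cells as CPM and 0.684-fold per cell.

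**Figure D3:**
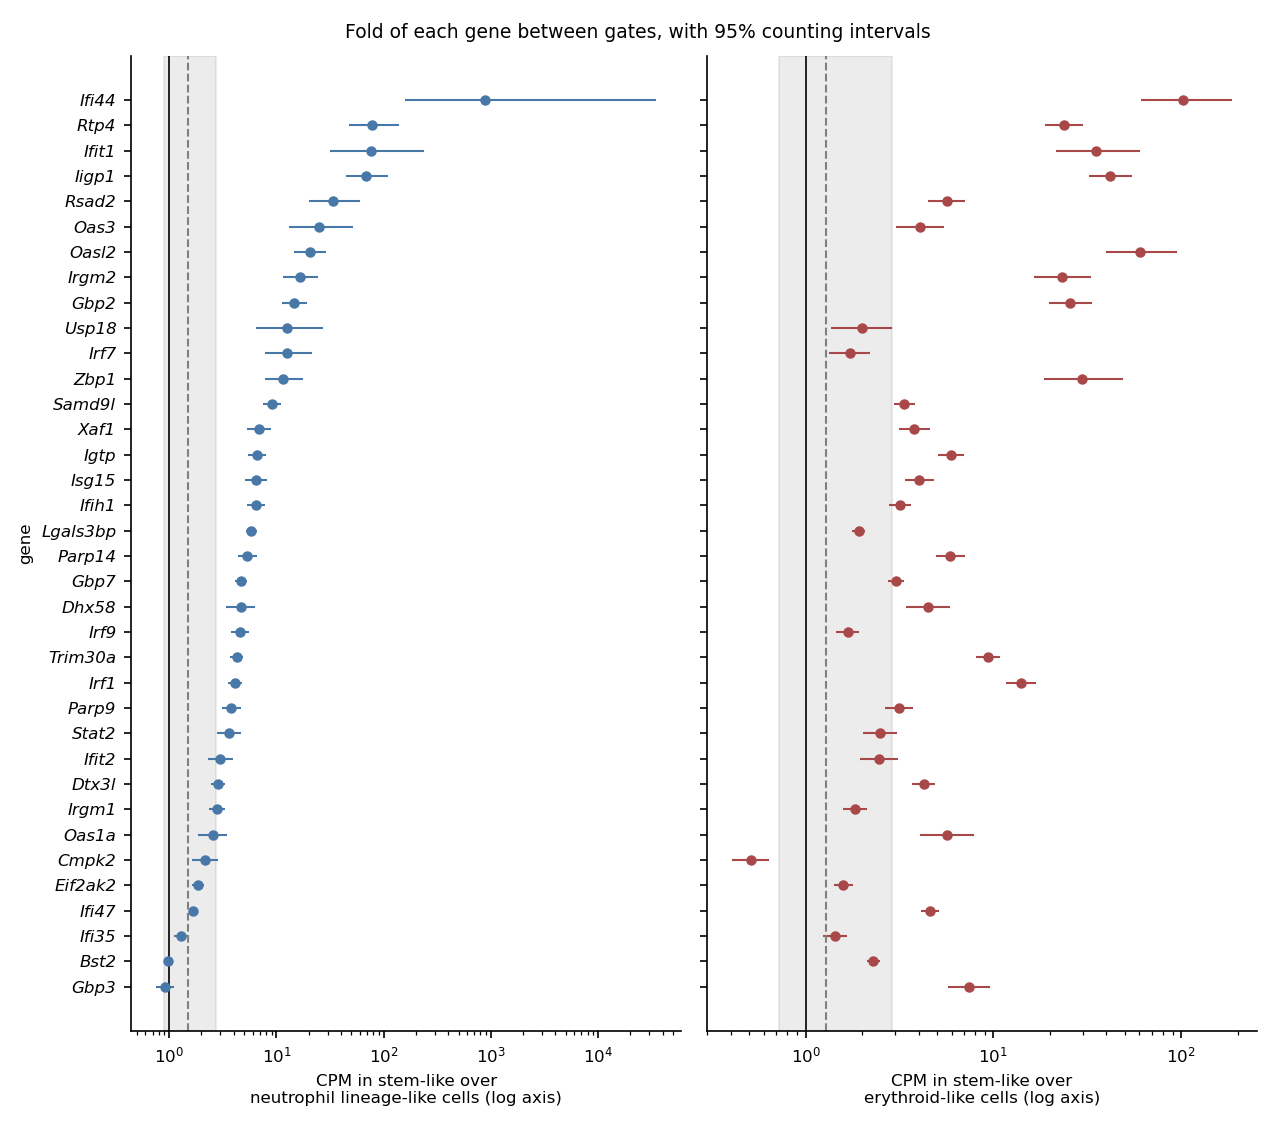
Fold of each gene's CPM in stem-like over neutrophil lineage-like (left) and erythroid-like cells (right), with 95% exact counting intervals, for the 36 genes with at least 50 UMIs in each pair of gates. Both axes are logarithmic, the dashed line is the median of all genes and the grey band their interquartile range. Ifi44 lies farthest right in both panels, Gbp3 and Bst2 sit at 1-fold on the left, and Cmpk2 is the gene below 1-fold on the right.

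Among the remaining gates the differences were largest in median over monocyte-like cells and smallest over conventional dendritic-like cells. At least 2-fold higher in stem-like cells as CPM were 29 of 37 members over monocyte-like cells (27.7% of all genes tested) and 29 of 37 over basophil or mast-like cells (21.1%). The counts were 19 of 36 over megakaryocyte-like cells (13.3%) and 19 of 37 over lymphoid-primed multipotent-like cells (16.2%). Over conventional dendritic-like cells it was 17 of 37 (30.6%), and 4 members were at least 2-fold lower there (7.93%). Counted per cell, for which no share of all genes was computed, the 5 counts of higher members were 19, 16, 12, 10 and 16. At least 2-fold lower in stem-like cells was 1 member, Ifi27l2a, against monocyte-like cells (10.9% of all genes) and again against lymphoid-primed multipotent-like cells (6.46%). None was against megakaryocyte-like (5.14%), basophil or mast-like (7.86%), neutrophil lineage-like (8.26%) or erythroid-like cells (13.4%). Median member folds as CPM were 6.11 over monocyte-like, 2.84 over basophil or mast-like, 2.18 over megakaryocyte-like, 2.03 over lymphoid-primed multipotent-like and 1.48 over conventional dendritic-like cells. Those of all genes were 1.26, 1.2, 1.06, 1.10 and 1.34.

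Within the stem-like gate, the members differed in how their UMIs were spread over the cells. In 689 stem-like cells thinned to 5000 UMIs, the variance of a gene's UMIs per cell was divided by its mean, a ratio of 1 being that of counting noise alone. Of 30 members with at least 50 thinned UMIs, 6 had a ratio of at least 1.5, against 2.43% of 7752 genes. The count fell to 1 without the 1% of cells highest in the module and to 2 when cells were thinned to 3000 UMIs. The median was 1.15 for the members and 1.03 for all genes. Iigp1 had 3.69, Isg15 1.90, Rtp4 1.77, Ifit1 1.64, Irf1 1.64 and Rsad2 1.64. Over 20 repeats of the thinning, chosen after seeing the data, the count of members at or above 1.5 ran from 3 to 7, while the mean ratio was at least 1.5 for these same 6 genes, against 2.35% of 7738 genes. The means were 3.60 for Iigp1 (2.89 to 4.46 over the repeats), 1.77 for Ifit1 (1.5 to 2.04), 1.74 for Rsad2 (1.43 to 2.04), 1.70 for Isg15 (1.42 to 2.13), 1.57 for Rtp4 (1.43 to 1.78) and 1.5 for Irf1 (1.31 to 1.59).

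In the single draw the 6 lowest ratios were those of Irf9 at 0.931, Trim30a at 0.954, Gbp3 at 0.981, Dhx58 at 0.989, Ifi35 at 1.01 and Lgals3bp at 1.03. Over the 20 repeats, Trim30a was not among the 6 lowest, with a mean of 1.10 (1.01 to 1.21), and Parp9 was, with 0.994. The others had means of 0.990 (Ifi35), 1.0 (Dhx58), 1.01 (Irf9), 1.01 (Lgals3bp) and 1.04 (Gbp3), against a median of 1.03 for all genes. Dhx58 encodes LGP2, a regulator of the RNA sensors. These genes differed widely in level. Lgals3bp (402 thinned UMIs) was common, with a UMI in 43.4% of the thinned stem-like cells, while Dhx58 (57) and Gbp3 (60) were scarce. Iigp1, with 250 thinned UMIs, was close in abundance to Trim30a (266). It had no UMI in 553 of the 689 thinned cells, 1 in 90, 2 in 22 and 3 or more in 24, up to 19 in a single cell. Trim30a had no UMI in 463, 1 in 191, 2 in 30 and 3 or more in 5, up to 3. Bst2, the most abundant with 460 thinned UMIs, had a ratio of 1.06.

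**Figure D4:**
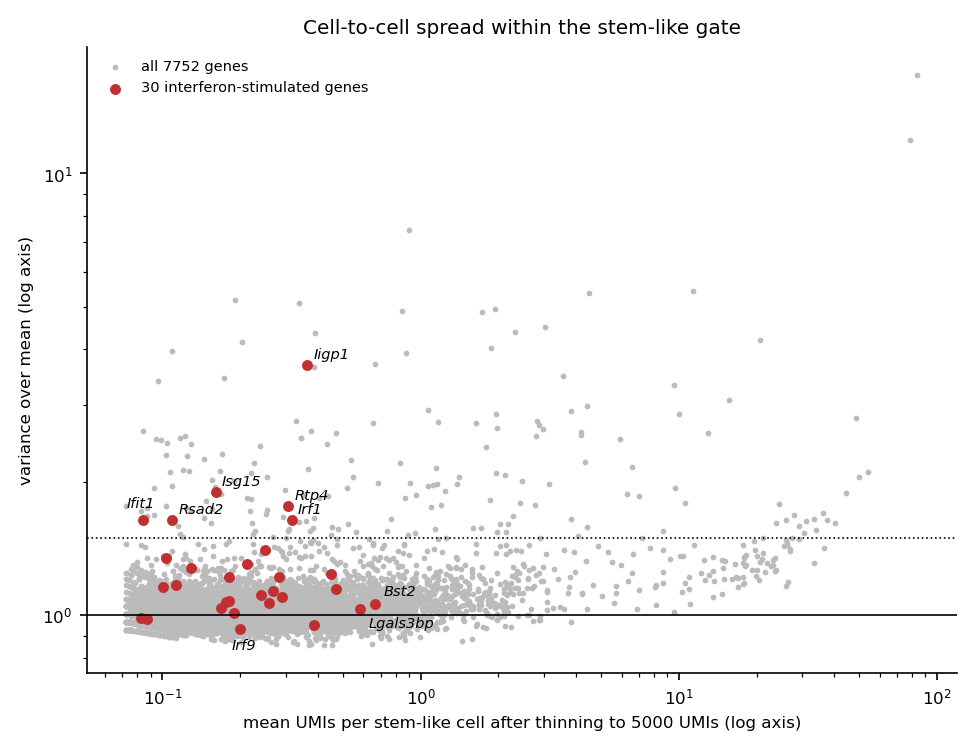
Variance over mean of UMIs per cell against mean UMIs per cell in 689 stem-like cells thinned to 5000 UMIs, for all 7752 genes with at least 50 thinned UMIs (grey) and 30 module genes (red), on logarithmic axes. The solid line is the counting noise ratio of 1 and the dotted line 1.5. Iigp1 at 3.69 lies farthest above the line, and Bst2 at 1.06 and Lgals3bp at 1.03 lie near it.

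Shares of cells with a UMI were set beside those in deeper gates where the gene is low, since free RNA in droplets adds UMIs to every cell. Ifit1 had a UMI in 6.97% of thinned stem-like cells (5.18% to 9.13%), in 0.241% of erythroid-like cells and in 0 of 1024 neutrophil lineage-like cells, which allows up to 0.360%. Unthinned, the shares were 10.5%, 1.2% and 0.390%. Iigp1 had 19.7% in stem-like, 0.482% in erythroid-like and 0.293% in neutrophil lineage-like cells (31.8%, 2.0% and 1.27% unthinned). Ifi44 had 17.0%, 0.241% and 0 (25.2%, 0.801% and 0.0976% unthinned). Bst2 was instead in 48.0% of stem-like, 46.5% of neutrophil lineage-like and 21.8% of erythroid-like cells. Among members with enough UMIs, none reached 1.5 in neutrophil lineage-like cells (0 of 12, 1.5% of all genes) or in erythroid-like cells (0 of 18, 2.81%). In monocyte-like cells Bst2 (1.79) and Samd9l (1.73) did (2 of 18, 2.31%), and in lymphoid-primed multipotent-like cells Ifi27l2a (1.89) and Bst2 (1.53) did (2 of 11, 5.43%). Of the 6 genes at 1.5 or more in stem-like cells, only Irf1 had enough UMIs in neutrophil lineage-like cells and none did in erythroid-like cells. The counts of 0 therefore cannot show that uneven spread was absent there. Below the minimum, Iigp1 had 3.00 in neutrophil lineage-like cells (6 thinned UMIs) and 2.38 in erythroid-like cells (13), where Rsad2 had 1.87 (27).

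The cells highest in the module are described next. Cells were ranked by their share of UMIs from the 39 genes, so that those at the top hold more than their part follows from the ranking, and how much of it counting noise alone would give was not tested. The highest 1%, 76 cells, held 3.96% of the module's UMIs (3.84% to 4.09%) and 0.526% of all UMIs. Their rate began at 30.9 UMIs per 10000, against a median of 5.62 over all cells. Of the 76 cells, 39 were stem-like, which is 5.56% of that gate (3.98% to 7.52%), 16 were in no gate, 5 were lymphoid-primed multipotent-like and 5 were among the 14 plasmacytoid dendritic-like cells. None of the 1025 neutrophil lineage-like cells was among them (up to 0.359%), and 3 of 1248 erythroid-like cells were. Their median depth was 8529 UMIs, against 18794 in the rest. Ranked after thinning, 34 of the highest 75 cells were stem-like (4.93% of the gate) and the 75 held 6.61% of the thinned module UMIs. No Scrublet doublet call fell on the 76 cells.

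To see which genes those cells held, each member was scored against cells ranked on the other 38. Ifit1 had 38.1% of its UMIs in the highest 1% of cells, Ifit3 28.6% (12 of 42 UMIs), Iigp1 21.2%, Rsad2 17.4%, Isg15 14.9% and Ifi44 14.4%. Zbp1 followed with 12.9%, Rtp4 with 12.4%, Oasl2 with 12.0% and Irf7 with 10.2%. At the low end, Gbp3 had 1.14%, Bst2 1.16%, Lgals3bp 1.43%, Ifi35 1.48%, Irf9 1.57% and Ifi47 1.73%. Of the 37 members with at least 100 UMIs, 16 had 5% or more there, against 0.721% of 12483 genes. Ranked on all 39 genes, 39 of the 76 highest cells were stem-like, so a gene high in stem-like cells also gains share. The genes set beside the members were not matched for this. The median was 3.54% for the members and 0.594% for all genes.

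**Figure D5:**
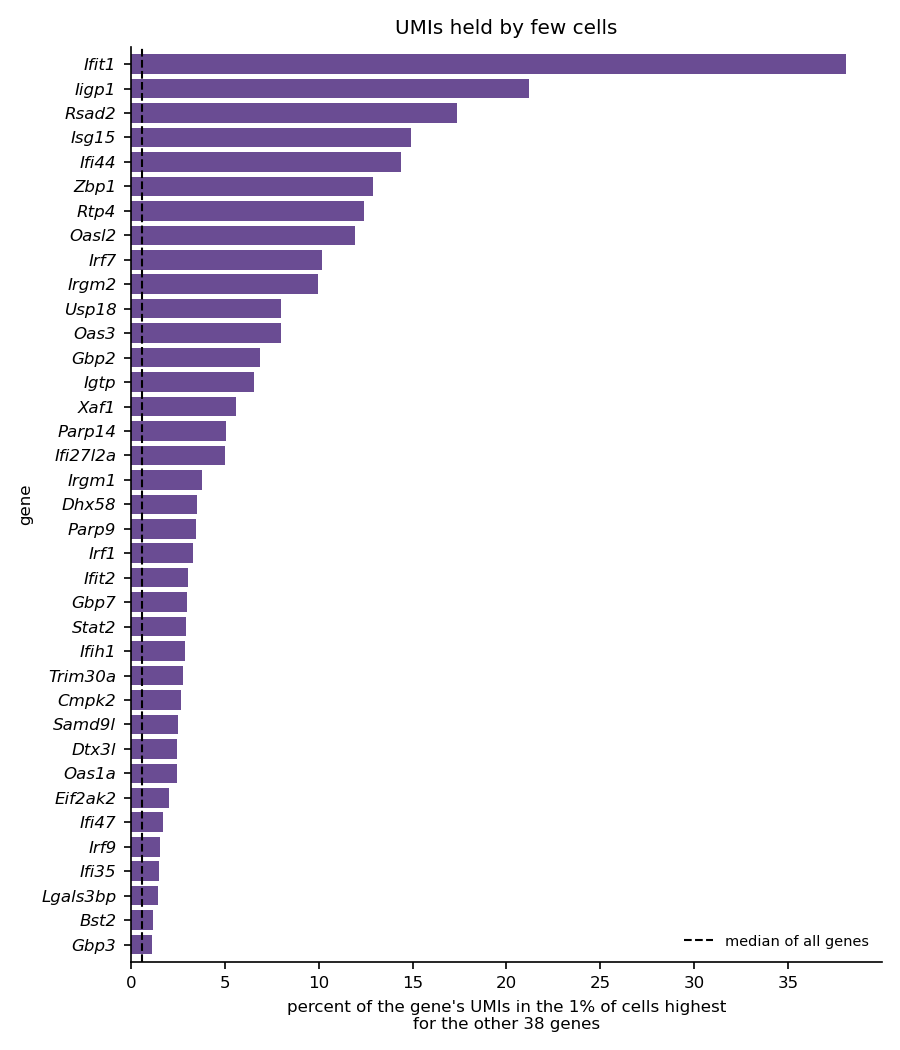
Percent of each gene's UMIs that lay in the 1% of cells with the highest share of UMIs from the other 38 genes, for the 37 genes with at least 100 UMIs. The dashed line is the median of all genes, 0.594%, and the bars run from 1.14% for Gbp3 to 38.1% for Ifit1.

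Several of the same genes stood apart within the stem-like gate. The highest 5% of its cells were taken here in place of 1%, so these shares are not comparable in size with those above. Both rankings use the share of module UMIs, so many of these cells were already among the highest above. Some genes changed place: Cmpk2 had 17.9% here and 2.65% over all cells, Ifit2 15.1% and 3.06%, and Irgm2 11.1% and 9.98%. The 35 stem-like cells with the highest share of module UMIs held 13.2% of the gate's module UMIs in 4.11% of its UMIs, which again describes cells chosen by that share. Ranked on the other 38 genes, such cells held 45 of the 112 stem-like UMIs of Ifit1 (40.2%), 68 of the 214 of Isg15 (31.8%) and 114 of the 462 of Iigp1 (24.7%). They held 5.11% of the Lgals3bp UMIs, 6.02% of those of Irf9 and 7.85% of those of Bst2. Irf1, with a ratio of 1.64 in the stem-like gate, had 9.95% of its stem-like UMIs there, a share nearer to that of Bst2 than to that of Ifit1.

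The highest cells were not alike. The highest of all was a stem-like cell of 4018 UMIs with 83 from 24 module genes, led by Isg15 with 20. The next was a cell in no gate with 188 module UMIs from 35 of the 39 genes, led by Rsad2 (21), Isg15 (18) and Ifit1 (17). The cell after it, also in no gate, was led by Iigp1 (28), Igtp (12) and Irf1 (7), and Isg15 gave 4 of its 91 module UMIs.

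Genes outside the module that were most held by the same 1% of cells were, by share of their UMIs, Cxcl9 (51.8%), Cxcl10 (36.0%), Gm12185 (23.5%), Gm4951 (20.9%), Slfn5 (19.7%), F830016B08Rik (16.1%), Gm4841 (15.3%), Tgtp2 (14.1%), Ccl5 (12.6%) and Siglech (11.5%). Cxcl9 and Cxcl10 encode chemokines that interferon gamma induces, and Tgtp2 an immunity-related GTPase. Cxcl9 rested on few cells, with 137 UMIs in 21 cells, 89.8% of them in 10 cells. Siglech, a marker of plasmacytoid dendritic cells, had none in stem-like cells.

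Interferon transcripts themselves were hardly detected at this depth. The 20 interferon genes of the matrix had 5 UMIs in all 7645 cells, 4 of Ifnk and 1 of Ifna13, and Ifnb1 and Ifng had 0 (a count of 0 allows up to 3 UMIs). Of the receptor chains, Ifngr1 had 331 CPM in neutrophil lineage-like and 70.5 CPM in stem-like cells, and Ifnar2 81.8 and 71.7 CPM, whereas Ifnar1 had 13 and 34.3 CPM. Of 5 receptor genes with enough UMIs, 1 was at least 2-fold higher in stem-like than in neutrophil lineage-like cells and 1 at least 2-fold lower, beside background shares of 36.6% and 8.26%. Per cell none was 2-fold higher and 4 were 2-fold lower, but these background shares are of CPM folds and none was computed per cell. In stem-like against neutrophil lineage-like cells, Jak1 had 224 against 69.2 CPM (1.39-fold per cell) and Stat3 148 against 35.3 CPM (1.80-fold per cell). Tyk2 had 17.8 against 11.6 CPM, which was 0.660-fold per cell. Sensors and adaptors were 2-fold higher for 4 of 11 and lower for 1, Irf8, a factor of monocyte and dendritic cells with 16.6 against 60.1 CPM. The negative regulators were higher for 4 of 8. Per cell the counts of higher genes were 1 of 11 and 2 of 8, with 2 genes 2-fold lower in each list, again without a share of all genes.

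A list of 45 further interferon-stimulated genes, of which 42 were found by symbol, was read in the same way. Of 32 with enough UMIs, 24 were at least 2-fold higher in stem-like than in neutrophil lineage-like cells (median fold 4.11, against 36.6% and 1.51 for all genes), and of 33, 28 were higher than in erythroid-like cells (median 4.68, against 33.9% and 1.29) and 2 lower. Per cell the counts of higher genes were 15 and 14, and those of lower genes 4 and 5, with no share of all genes computed per cell. B2m, the light chain of MHC class I, had 1723 CPM in stem-like and 652 CPM in neutrophil lineage-like cells (1.13-fold per cell), and Ifitm3, which blocks viral entry, 1300 and 142 CPM (3.93-fold per cell). The immunoproteasome gene Psmb8 was lower, with 373 and 569 CPM. Uba7, the enzyme that activates ISG15, had 201 and 12.7 CPM.

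Some counts carry a limit from the annotation. The 3′ end of 3 members (Isg15, Oas1a and Oas3) matched another transcript at 95% identity or more, 7 members overlap another gene on the same strand and 13 on the opposite strand, so their reads could be lost or shared in counting.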

How the data were processed

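Sorted LK cells of 1 control library were profiled with the 10x Genomics Chromium 3′ v3.1 kit per the methods (the labels describe a bulk kit). The authors deposited UMI counts per gene and barcode, not normalized, made with Cell Ranger 6.0.2 on mm10 per the submitters' processing notes. The study's filter was applied: between 1000 and 50000 UMIs, between 1000 and 6500 genes, and less than 7% of UMIs from mitochondrial genes. Doublet calls (Scrublet in scanpy 1.11.5, expected rate 6%, 265 calls) were kept and removed in an alternative. A cell's score on a marker list was the mean over its genes of log2(1 + UMIs per 10000), each divided by its mean in the 50 highest cells and capped at 1. With 1 library there were no tests. Intervals were 95% exact (Poisson, Clopper-Pearson, conditional binomial, scipy 1.17.1). Folds needed 50 UMIs in both gates together, variance ratios 50 thinned UMIs and shares in the highest cells 100. Cells were thinned with seed 1. Gene coordinates were from GENCODE on GRCm38, and 3′ copies were sought with blastn 2.17.0 over the last 300 bases. Scripts were tested on simulated data. The summary count of the JAK and STAT list is not reported here.

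Named were the members with the 10 highest CPM, the 6 highest and lowest folds and variance ratios, those peaking in each gate, and the 10 other genes most held by the highest cells. Further members stand as examples of their role, chosen after their values were seen. The members, marker lists and gene lists were chosen with earlier results of these data known.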

Additional observations from a re-analysis of the deposited data

Results flagged for a closer look

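The barcodes that the cell filter removed carried the module too, in data no comparison above used. The 1172 removed barcodes had a summed level of 512 CPM (501 to 523), against 624 CPM in the cells kept and a limit of 0.192 CPM for a count of 0. Their median depth was 2952 UMIs, and 909 of them were over the mitochondrial limit. What these barcodes were was not tested.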

How the results depend on the processing

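Of 15 alternative settings (69 values, 38 within the spread or 1.5-fold limit set for them), 11 gave the sum folds over neutrophil lineage-like and erythroid-like cells again, and both stayed above 1 in each. The sum folds over lymphoid-primed multipotent-like and conventional dendritic-like cells turned to 0.947 and 0.998 per cell and were not computed under the other settings. UMIs per cell in place of CPM moved the sum folds and the counts at 2-fold the most. It gave 14.3 UMIs for the stem-like sum, which is a change of unit. The folds over neutrophil lineage-like and erythroid-like cells were 1.44 and 1.04, with 20 and 11 members at 2-fold. Stricter cell filtering (418 stem-like cells) gave 1400.2 CPM, 3.08 and 3.20. Stricter gates gave 1564 CPM, 3.52 and 3.63, and gates from summed marker UMIs 1360.0 CPM, 2.85 and 3.06. With haemoglobin, ribosomal protein and mitochondrial genes left out of the total, the sum was 2366 CPM. Without the highest 1% of cells it was 1363 CPM, with folds of 3.00 and 3.20, and 1 member in place of 6 had a variance ratio of 1.5. Without Bst2 it was 1397 CPM, with folds of 4.28 and 3.67, and the highest cells held 4.54% of module UMIs. Without the 3 genes with a near-identical copy it was 1464 CPM and that share 3.68%, and with no cell filter the share was 4.17%. Thinning to 3000 UMIs left 2 genes at a variance ratio of 1.5 and another thinning seed 3, so the count of 6 rests on the draw more than the 6 mean ratios do. Alternatives added after seeing the data were cells of 8000 to 16000 UMIs (folds of 3.03 and 2.45, from 360 stem-like, 135 neutrophil lineage-like and 100 erythroid-like cells), thinning before ranking (6.61%) and the mean of 20 thinning draws (6 genes). No paired analysis was possible because there was 1 library and no second group. Depth limits scarce genes such as Ifit3 and Oas2 to a few UMIs, and with 1 library nothing bears on variation between animals.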
